A study of Gallus gallus with 16 samples.

Results

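The genes described here code for the proteins of the cytosolic ribosome, and they were read in duodenum of chickens of a line with low residual feed intake (LRFI) and a line with high residual feed intake (HRFI). Members were the probe sets with exactly 1 gene symbol that begins with RPL or RPS and a digit or with RPLP, without the kinases of the RPS6K family and without LOC symbols. This gave 141 probe sets, and the probe set with the highest mean over all arrays stood for each gene, which left 67 genes of the 13009 genes with 1 symbol on the array. By class, 37 were large-subunit proteins, 23 small-subunit proteins and 3 stalk proteins, and 4 were paralogs or other proteins (RPL22L1, RPL3L, RPL7L1 and RPS19BP1). RPS19BP1, which binds RPS19, met the naming rule but is not a subunit of the ribosome. RPL26L1, RPL39L, RPS27L and RPS4Y1, which also belong to paralog pairs, were counted with their subunits. RPSA, the small-subunit protein also known as the laminin receptor precursor, was included in the rule by name. It is not among the 67 genes, as no probe set carried it as the only symbol.

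Residual feed intake is the feed eaten beyond what size and growth predict, so birds of the low line eat less for the same growth. The groups were LRFI at day 42, LRFI at day 35, HRFI at day 42 and HRFI at day 35, with 4 one-colour Affymetrix arrays of total duodenal RNA in each of the 4 groups. All groups came from one population selected in opposite directions, and no treatment was named. Whether each array stands for its own bird is not in the labels, so p-values reflect the variation among these 16 arrays, some of which may be technical.

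The ribosome reads mRNA on its small subunit and joins amino acids on its large subunit, while a flexible stalk on the large subunit recruits elongation factors. Ribosomal protein mRNAs are among the most abundant in animal cells, and they carry a pyrimidine tract at their start through which the kinase mTOR and the protein LARP1 control their translation. The duodenal lining renews itself from crypts throughout life and makes large amounts of digestive and transport proteins.

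Values are log2 readings per probe set, on which a difference of 1 is a 2-fold difference. All 14 epithelial markers were measured, with a mean of 11.95 to 12.10 on LRFI day 42 arrays, 12.06 to 12.09 on LRFI day 35 arrays, 11.99 to 12.08 on HRFI day 42 arrays and 11.89 to 11.99 on HRFI day 35 arrays. Among them VIL1, a protein of microvilli, averaged 12.18 over all arrays, the transcription factors of the intestine CDX2 and CDX1 11.35 and 9.62, and FABP6, a bile acid binding protein of the lower small intestine in mammals, 5.56, the lowest of the list. Of 17 markers of exocrine pancreas, the 12 measured averaged 11.02 on LRFI day 42 replicate 2 and 13.39 on HRFI day 35 replicate 3, against 4.96 to 5.92 on the other 14 arrays. On 5 arrays the 3′ probe set of actin exceeded the 5′ one by over 1, a measure of how complete the labelled RNA was. They were LRFI day 35 replicates 3 and 4, HRFI day 42 replicate 4 and HRFI day 35 replicates 2 and 3. The same difference for GAPDH did not set these 5 arrays apart, at 0.054 to 0.26. It was highest on the LRFI day 42 arrays, at 0.36 to 0.40, against at most 0.31 on any other array. In these bulk samples, fewer cells of a type and less RNA per cell cannot be told apart.

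Most ribosomal protein genes read near the top of the array's scale. The mean over 16 arrays was at least 12.5 for 59 of the 67 genes and at least 13 for 53, and 28 of them stood among the 100 brightest probe sets. These counts depend in part on the rule, which keeps the set with the highest mean of each gene. Of the 74 sets left out by that choice, 15 had a mean of at least 12 and 55 a mean under 8. The highest reading of any member was 14.34, while the highest reading on each array lay between 14.64 and 14.75. RPS3A averaged 14.22, RPS6, the substrate of the S6 kinases, 14.08, RPS23, a protein of the decoding centre, 14.03, RPL35 14.02 and RPL38, which in mouse is needed to translate particular Hox mRNAs, 14.01. A reading depends on the probes of its set as well as on the transcript, so these values do not rank the genes by mRNA level.

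**Figure D1:**
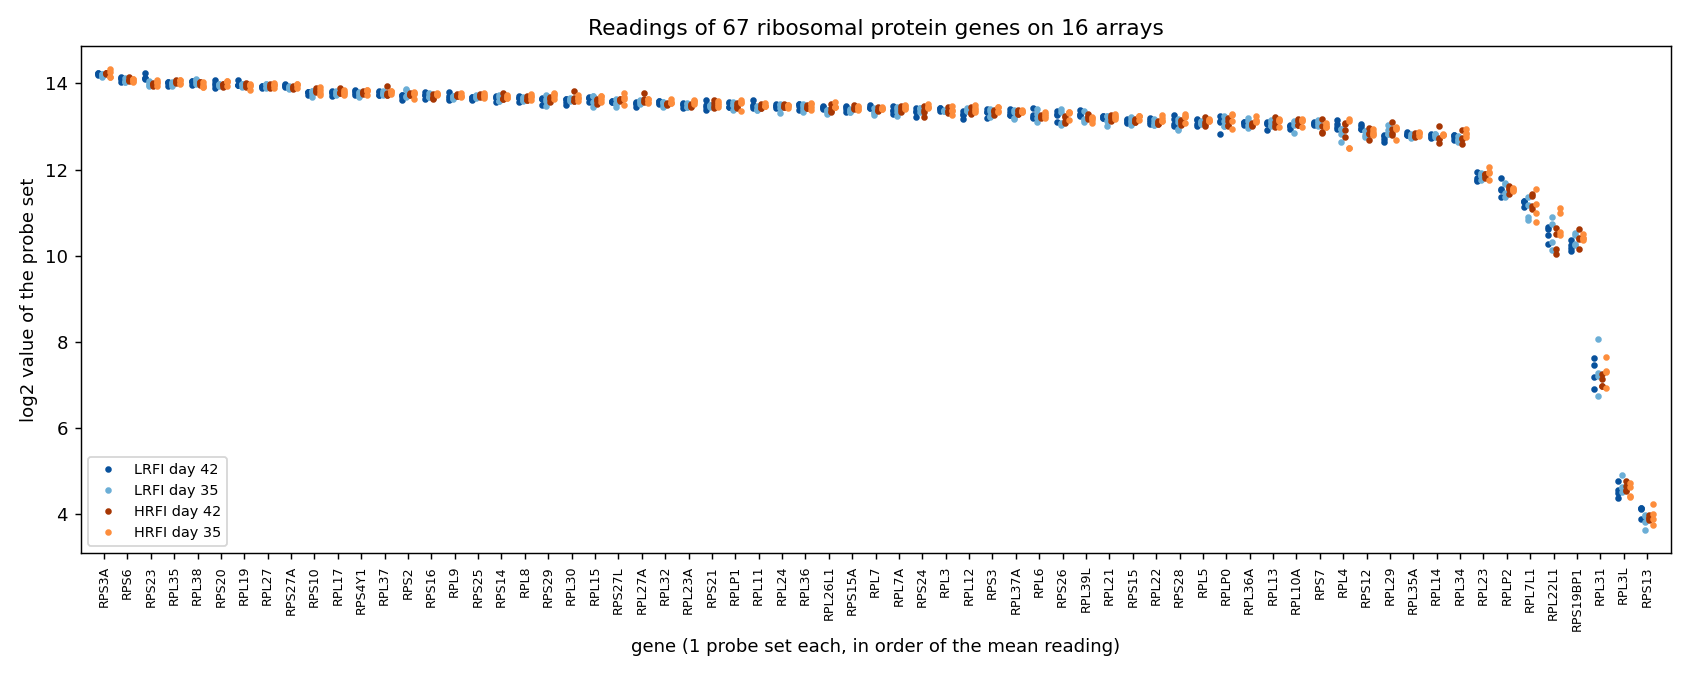
Log2 reading of each of the 67 genes (1 probe set each, in order of the mean reading) on all 16 arrays; each point is 1 array, coloured by line and age, and the vertical axis is the log2 value. Most genes lie above 12.5 with tightly stacked points, and RPL31, RPL3L and RPS13 lie far below the rest.

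The 5 lowest readings belonged to RPL22L1 (10.53), RPS19BP1 (10.36), RPL31 (7.25), RPL3L (4.59) and RPS13 (3.95). RPL3L, a paralog of RPL3 found in striated muscle of mammals, read 4.47, 4.55, 4.36 and 4.75 on LRFI day 42 arrays, 4.89, 4.51, 4.62 and 4.60 on LRFI day 35 arrays, 4.53, 4.64, 4.76 and 4.55 on HRFI day 42 arrays and 4.62, 4.43, 4.71 and 4.40 on HRFI day 35 arrays. All 4 groups overlapped, and its mean stood at the 41.5th percentile of all probe sets. Its partner RPL3, which lies near the site of peptide bond formation, averaged 13.41 ± 0.033, 13.36 ± 0.011, 13.37 ± 0.060 and 13.37 ± 0.086 (SD, n = 4 each) in LRFI at day 42, LRFI at day 35, HRFI at day 42 and HRFI at day 35.

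RPS13, a core protein of the small subunit, read 4.12, 4.14, 3.89 and 4.14 on LRFI day 42 arrays, 3.98, 3.62, 3.81 and 3.94 on LRFI day 35 arrays, 3.85, 3.91, 3.91 and 3.98 on HRFI day 42 arrays and 4.23, 4.003, 3.87 and 3.74 on HRFI day 35 arrays. All 4 groups overlapped, and the mean was at the 29.0th percentile of all probe sets. Another probe set, annotated to both RPS13 and GNAL and so left out by the rule, read 13.62 with an SD of 0.041 over 16 arrays. All 5 probe sets with RPS13 as the only symbol were dim, and those not chosen read 2.59 to 4.09 over all arrays. Of the sets that carry the gene's name, only the one shared with GNAL was bright.

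RPL31, which sits at the mouth of the exit tunnel for new proteins, had the largest SD over 16 arrays of all members (0.33). It read 7.45, 7.62, 6.90 and 7.18 on LRFI day 42 arrays, 6.75, 7.20, 7.27 and 8.07 on LRFI day 35 arrays, 6.97, 7.25, 6.98 and 7.13 on HRFI day 42 arrays and 7.33, 7.64, 7.31 and 6.92 on HRFI day 35 arrays. Both the lowest and the highest of these 16 readings were LRFI day 35 arrays. Its second probe set averaged 5.12, lower still.

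Readings of ribosomal proteins varied little between arrays of a group. The median SD within groups was 0.066 over the 67 genes (range 0.032 to 0.36), against 0.17 over all 38439 probe sets. Among probe sets with a mean of at least 12.5 it was 0.062 for the 59 bright members and 0.13 for 272 other probe sets. These 272 include some that the naming rule leaves out, namely the set annotated to RPS13 and GNAL and those annotated to RPSAP58. The same order held in all 4 steps of brightness. For example, between 13 and 13.5, 25 members had a median of 0.067 and 87 others 0.13, and between 13.5 and 14, 23 members had 0.052 and 49 others 0.10. Further bright probe sets of the member genes, not chosen by the rule, are in neither group. Their SDs within groups ran from 0.049 to 0.16, and all but that of RPL4 exceeded the SD of the gene's chosen set. RPS27A, which is made as a fusion with ubiquitin, had the smallest SD within groups, 0.032, which was also the smallest among all 38439 probe sets. It read 13.97, 13.996, 13.91 and 13.95 on LRFI day 42 arrays, 13.88, 13.88, 13.93 and 13.93 on LRFI day 35 arrays, 13.93, 13.89, 13.88 and 13.91 on HRFI day 42 arrays and 13.91, 13.98, 13.96 and 13.99 on HRFI day 35 arrays. Quantile normalization fixes the distribution of readings on each array, and how far it narrows the spread of the brightest probe sets was not tested.

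**Figure D2:**
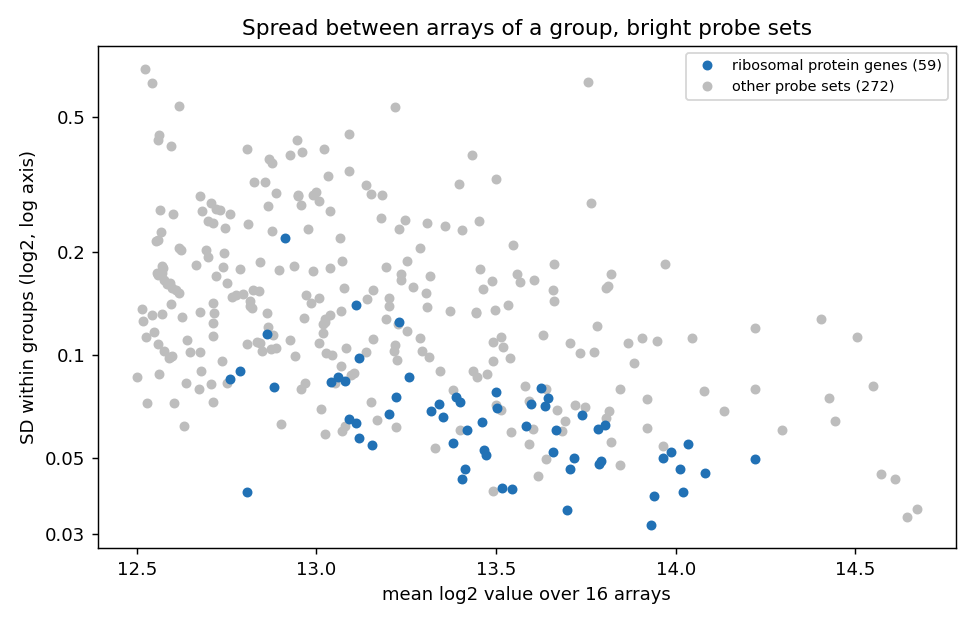
SD within groups (vertical, log axis) against the mean log2 value over 16 arrays (horizontal) for probe sets with a mean of at least 12.5; each point is 1 probe set, coloured as one of the 59 members or of the 272 others. The members lie mostly below the others at the same mean, with RPL4 the highest of the members at 0.22. Further bright probe sets of the member genes are not shown.

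In all, 4 genes had an SD over all arrays of at least 0.2, namely RPL31, RPL22L1 (0.31), RPL4 (0.22) and RPL7L1 (0.22). The next largest were RPS13 (0.16) and RPL3L (0.14), and for 55 of the 67 the SD was under 0.1. RPL4, which lines the exit tunnel, read 13.07, 13.16, 12.93 and 13 on LRFI day 42 arrays, 12.95, 12.94, 12.82 and 12.63 on LRFI day 35 arrays, 13.08, 13.05, 12.93 and 12.75 on HRFI day 42 arrays and 13.12, 12.50, 12.50 and 13.17 on HRFI day 35 arrays. Its 5 lowest readings, 12.50 to 12.82, were exactly the 5 arrays with an actin difference over 1, and the other 11 lay between 12.93 and 13.17. It was the only 1 of the 67 genes so separated in the low direction, beside 1.65% of all probe sets, and 0 were separated in the high direction, beside 0.333%. RPL4's second probe set, with a mean of 12.58, read 12.52, 12.41, 12.19 and 12.84 on HRFI day 35 arrays, again with replicates 2 and 3 lowest, and 12.49, 12.69, 12.68 and 12.35 on LRFI day 35 arrays, where only replicate 4 of the 2 arrays with a high actin difference was low.

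RPL7L1, related to a yeast assembly factor of the large subunit, read 11.24, 11.12, 11.28 and 11.26 on LRFI day 42 arrays, 11.36, 11.18, 10.89 and 10.82 on LRFI day 35 arrays, 11.09, 11.43, 11.14 and 11.38 on HRFI day 42 arrays and 11.54, 10.99, 10.79 and 11.20 on HRFI day 35 arrays. Of its 5 lowest arrays, 4 had an actin difference over 1, and its mean on those 5 was lower by 0.28 than on the other 11. Its partner RPL7 stayed within 13.27 to 13.49. RPL31 read higher by 0.34 on the 5 arrays, and RPS19BP1 by 0.16. The part of RNA integrity in these readings was not tested.

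**Figure D3:**
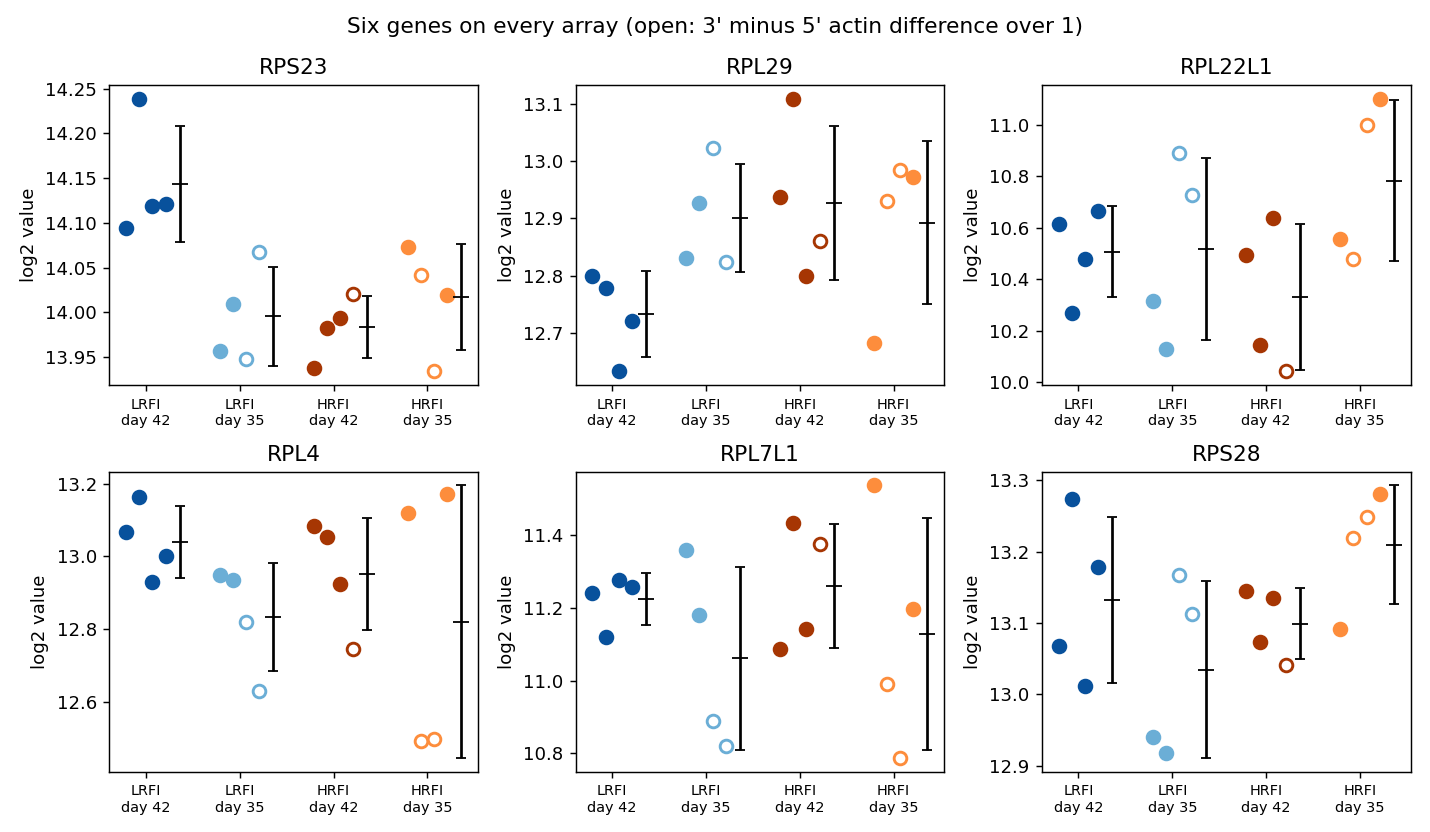
Log2 reading on every array of 6 genes, 1 panel each, by line and age (4 arrays per group, LRFI left of HRFI); open points are the 5 arrays with a 3′ minus 5′ actin difference over 1. In RPL4 the open points lie at 12.50 to 12.82, below all filled points.

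Taken over all 67 genes, arrays differed little. The median over the 67 genes was 13.44, 13.47, 13.37 and 13.42 on LRFI day 42 arrays, 13.34, 13.37, 13.39 and 13.40 on LRFI day 35 arrays, 13.44, 13.48, 13.37 and 13.37 on HRFI day 42 arrays and 13.38, 13.49, 13.45 and 13.45 on HRFI day 35 arrays. The ranges of all 4 groups overlapped, and 3 of the 4 HRFI day 35 arrays lay above all 4 LRFI day 35 arrays. The number of genes above their own mean over 16 arrays ran from 10 on LRFI day 42 replicate 3 and LRFI day 35 replicate 2 to 58 on HRFI day 35 replicate 2.

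**Figure D4:**
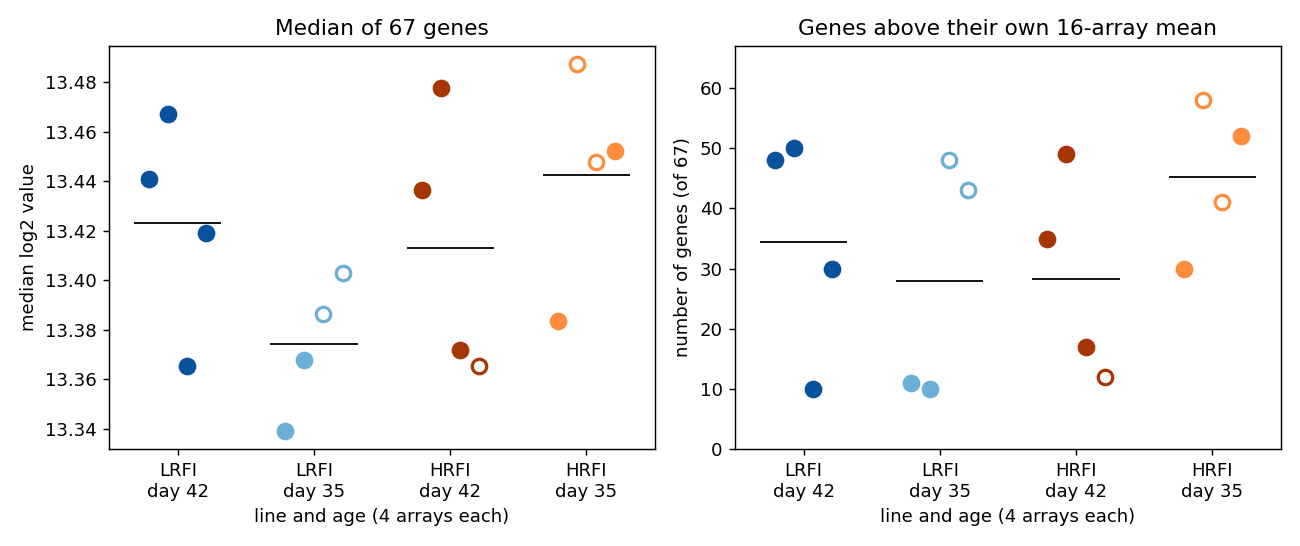
Median log2 reading of the 67 genes and the number of genes above their own mean over 16 arrays, by line and age, with 1 point per array and 4 arrays per group; open points are the 5 arrays with an actin difference over 1, and lines are group means. The medians lie between 13.34 and 13.49, and arrays of 1 group differ by as much as the groups do.

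The lines were first compared at day 35, to ask whether ribosomal protein mRNAs differed between birds of low and high residual feed intake. Their differences were small and mostly below 0, as 11 of 67 had higher and 56 lower means in LRFI, with a median of -0.046 beside -0.00076 over all 13009 genes and 0.041 over the 272 other bright probe sets. By subunit, 7 large-subunit genes had higher and 30 lower means (median -0.043), and in the small subunit 2 were higher and 21 lower (median -0.050). No gene passed an adjusted p of 0.05 in limma (smallest 0.754), with 0% of all probe sets passing. At an unadjusted p under 0.05 there were 0 members, against 6.66% of all probe sets, and 0 members with trended and robust variances too. Without the 5 arrays of high actin difference 6 genes were higher and the median was -0.074. That leaves only replicates 1 and 2 of LRFI and replicates 1 and 4 of HRFI at day 35. With each array centred on its own median 15 genes were higher and the median of the differences was -0.028.

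Cell type markers were read on the same day 35 arrays. HBAD, an alpha globin of red blood cells and the 1 of 4 erythrocyte markers measured, read 9.79 to 12.08 on LRFI day 35 arrays, against 8.25 to 9.85 on HRFI day 35 arrays, and at day 42 it read 7.15 to 10.22 in LRFI and 7.35 to 8.51 in HRFI. The mean of the 14 epithelial markers given above lay at 12.06 to 12.09 on LRFI day 35 arrays, against 11.89 to 11.99 on HRFI day 35 arrays, without overlap. Means of the 6 T and NK cell markers were 8.89 to 9.25 on LRFI day 35 arrays, against 9.02 to 9.74 on HRFI day 35 arrays, those of 2 of 4 B and plasma cell markers 9.39 to 9.94, against 9.12 to 9.94, and those of 4 of 5 smooth muscle markers 7.94 to 8.38, against 7.99 to 8.34. The part of these cell types in the lower means of 56 genes, and in the interaction of line and age, which uses the same arrays, was not tested.

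RPS28, a small-subunit protein, had the smallest p. It read 12.94, 12.92, 13.17 and 13.11 on LRFI day 35 arrays, against 13.09, 13.22, 13.25 and 13.28 on HRFI day 35 arrays. The groups overlapped, with LRFI replicates 1 and 2 below all HRFI arrays. The difference was -0.18 (SE 0.083, adjusted p = 0.754), and averaged over all probe sets of the gene, dimmer ones included, -0.013.

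RPL26L1, listed in RefSeq with RPL26 as a synonym, read 13.29, 13.34, 13.38 and 13.39 on LRFI day 35 arrays, against 13.45, 13.45, 13.57 and 13.45 on HRFI day 35 arrays. The groups did not overlap, and the difference was -0.13 (SE 0.069, adjusted p = 0.794). RPL5, which carries ribosomal RNA into the large subunit and binds MDM2, was the other of the 2 members with groups apart, all lower in LRFI, where 1.88% of all probe sets were. It read 13.05 to 13.12 on LRFI day 35 arrays and 13.12 to 13.18 on HRFI day 35 arrays, so the groups did not overlap, although the highest LRFI and the lowest HRFI reading both round to 13.12, and the difference was -0.054 (adjusted p = 0.924). No member was higher without overlap, against 0.994% of all probe sets.

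Of the other genes with the smallest p, RPL34 differed by -0.13, RPS27L by -0.11 and RPS29 by -0.11 (adjusted p = 0.811 to 0.845). The largest difference in size at day 35 was that of RPL22L1, -0.27 (SE 0.187, adjusted p = 0.851). In the opposite direction, RPL38 differed by 0.095 and RPL3L by 0.12, RPS7 by 0.061, RPL19 by 0.038 and RPS2 by 0.035 (adjusted p = 0.845 to 0.958). RPS7, a small-subunit protein that binds MDM2, read 13.05, 13.11, 13.02 and 13.16 on LRFI day 35 arrays, against 12.99, 13.07, 13.04 and 12.99 on HRFI day 35 arrays, which overlap. RPL19 and RPS2 turned their sign, to -0.0063 and -0.020, when the 5 arrays of high actin difference were left out, and RPS27L was then -0.053. Averaged over their probe sets, RPL34 was 0.0042, RPL38 0.0074, RPS7 0.0029 and RPL19 0.0097. The other set of RPL34 read only 2.88 to 3.75, whereas those of RPS7, RPL19 and RPL38 include bright ones (means of 13.03, 13.46 and 13.34). These bright sets of RPL19 and RPL38 had lower means in LRFI at day 35, opposite to the chosen ones. A further bright set of RPL38 (mean 13.31) had a higher mean in LRFI. The second set of RPS7 read 12.955, 13.01, 13.11 and 13.07 on LRFI day 35 arrays. On HRFI day 35 arrays it read 13.01, 13.19, 13.07 and 13.10, so its mean was lower in LRFI, opposite to the chosen set.

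At day 42 the same comparison of lines gave no lean to either side. Means were higher in LRFI for 35 of 67 genes and lower for 32, with a median of 0.0038, beside -0.012 over all genes and -0.034 over the other bright probe sets. No member passed (smallest adjusted p = 0.881), and 0.0026% of all probe sets, which is 1, did. At an unadjusted p under 0.05 there were 2 members, RPS23 and RPL29, against 5.57% of all probe sets, and the same number with trended and robust variances. All member differences lay between -0.19 for RPL29 and 0.20 for RPL31.

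RPS23, whose protein helps keep decoding accurate, had the smallest p. It read 14.09, 14.24, 14.12 and 14.12 on LRFI day 42 arrays, against 13.94, 13.98, 13.99 and 14.02 on HRFI day 42 arrays. The groups did not overlap, and the difference was 0.16 (SE 0.067, adjusted p = 0.881), a 1.12-fold difference. The 4 LRFI day 42 arrays also lay above all 12 other arrays, the only member of which this held and a pattern of 0.114% of all probe sets; 0 members lay below the other 12, beside 0.213%. In the 3′ minus 5′ difference of GAPDH too, the 4 LRFI day 42 arrays lay above the other 12 (0.36 to 0.40, against at most 0.31). Its part in the RPS23 readings was not tested. LRFI day 42 replicate 2 is one of the 2 arrays high in pancreatic enzymes, and without those 2 the RPS23 difference was 0.13. Between day 42 and day 35 in LRFI, a comparison that shares the LRFI day 42 arrays, it was 0.15 (adjusted p = 0.493).

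RPL29, a small protein on the surface of the large subunit, read 12.80, 12.78, 12.63 and 12.72 on LRFI day 42 arrays, against 12.94, 13.11, 12.80 and 12.86 on HRFI day 42 arrays. The groups overlapped where LRFI replicate 1 and HRFI replicate 3 both read 12.80, with the other 3 LRFI arrays below all HRFI arrays. The difference was -0.19 (SE 0.091, adjusted p = 0.896). Averaged over all probe sets of the gene, with dim sets weighing as much as bright ones, it was -0.090. The second brightest set of RPL29 read 12.04, 11.97, 11.99 and 12.02 on LRFI day 42 arrays. On HRFI day 42 arrays it read 12.16, 12.26, 12.07 and 12.07, so its groups did not overlap.

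The other genes with the smallest p at day 42 were RPS12 (0.15), RPS13 (0.16), RPS7 (0.096) and RPL22L1 (0.18) on the higher side, and RPS19BP1 (-0.17), RPL27A (-0.12), RPL10A (-0.091) and RPS25 (-0.070) on the lower side, with adjusted p-values of 0.903 to 0.961. When all probe sets of a gene were averaged, 7 of the 10 genes named for the lines at day 42 moved by over 1.5 times, with RPL22L1 at -0.050, RPS25 at 1e-04, RPS13 at 0.020, RPS7 at 0.036 and RPL10A at -0.029. The average weighs dim sets as much as bright ones, and all averaged sets of RPS13 are dim, the chosen one included (mean 3.95). The other bright sets of RPS25 (means of 13.47 and 13.45) had lower means in LRFI, as the chosen one did. The second set of RPS7 (mean 13.03) had a lower mean in LRFI, opposite to the chosen one. The second set of RPL10A, nearly as bright as the chosen one (mean 12.99), differed by only 0.0012. RPL22L1 was 0.080 without the 5 arrays of high actin difference. RPL27A, a large-subunit protein, read 13.55, 13.56, 13.46 and 13.52 on LRFI day 42 arrays, against 13.64, 13.77, 13.58 and 13.56 on HRFI day 42 arrays. These groups did not overlap, although the highest LRFI and the lowest HRFI reading were as close as 13.562 and 13.564. Those of RPS25 and RPS2 did not overlap either. This made 3 members lower without overlap and 1 higher (RPS23), beside 2.69% and 1.74% of all probe sets. For RPS2 the closest readings were 13.733 in LRFI and 13.739 in HRFI. Its other bright set read 13.352 to 13.545 in LRFI and 13.381 to 13.432 in HRFI, which overlap, with a higher mean in LRFI. RPS12 averaged 12.99 ± 0.057 in LRFI and 12.84 ± 0.117 in HRFI (SD, n = 4).

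Averaged over both ages, 17 of 67 genes had higher and 50 lower means in LRFI, with a median of -0.025 beside -0.0071 over all genes. None passed in limma (smallest adjusted p = 0.903), and 0% of all probe sets did. At an unadjusted p under 0.05 there were 0 members, against 5.48% of all probe sets, and 0 with trended and robust variances. For no member did the 8 LRFI and the 8 HRFI arrays lie apart, beside 0% of all probe sets higher and 0.0208% lower. The smallest p belonged on the lower side to RPL10A (-0.083), RPS27L (-0.077), RPL29 (-0.092), RPL27A (-0.071) and RPS19BP1 (-0.10), and on the higher side to RPS7 (0.079), RPS23 (0.069), RPL38 (0.057), RPS12 (0.063) and RPL39L (0.047), with adjusted p-values of 0.903 to 0.938. Averaged over their probe sets, RPL38 was -0.0044, RPS12 0.0093, RPS7 0.019 and RPL10A -0.052, and RPS23 was 0.039 without the 2 pancreatic arrays. The second set of RPS7, about as bright as the chosen one, had lower means in LRFI at both ages. That of RPL10A, nearly as bright as the chosen one (mean 12.99), differed by only 0.0045 over both ages. Bright sets of RPL38 with means of 13.34 and 13.31 had lower means in LRFI over both ages, opposite to the chosen one.

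The comparisons of the ages ask whether ribosomal protein mRNAs differed between day 42 and day 35. Over both lines the differences were small. Means were higher at day 42 for 28 of 67 genes and lower for 39, and the median of -0.0058 lay near that of all genes (-0.0091) and of the other bright probe sets (-0.0055). No member passed (smallest adjusted p = 0.502) and 0.0026% of all probe sets, which is 1, did. No member had ages apart in all arrays of both lines, beside 0.0624% of all probe sets higher and 0.0234% lower. At an unadjusted p under 0.05 there were 0 members, against 11.8% of all probe sets and 22.1% of the 272 other bright ones, and 0 with trended and robust variances. Of the 59 bright members, 98.3% differed by less than 0.1, and of the other bright probe sets 54.0%. Without the 5 arrays of high actin difference 50 genes were higher and the median was 0.025, without the 2 pancreatic arrays it was -0.016, and with arrays centred on their own median it was 0.0049.

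RPL12, a protein at the base of the stalk, had the smallest p over both lines. It read 13.30, 13.35, 13.17 and 13.27 on LRFI day 42 arrays, against 13.43, 13.36, 13.36 and 13.38 on LRFI day 35 arrays. In HRFI it read 13.28, 13.33, 13.30 and 13.45 on day 42 arrays, against 13.38, 13.51, 13.34 and 13.43 on day 35 arrays. The ages did not overlap in LRFI and did in HRFI, and the difference over both lines was -0.091 (adjusted p = 0.502).

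Further genes that read lower at day 42 over both lines were RPL22L1 (-0.23), RPS24 (-0.080), RPS19BP1 (-0.095) and RPL29 (-0.067), and those that read higher were RPL39L (0.091), RPL4 (0.17), RPL7L1 (0.15), RPS13 (0.093) and RPS23 (0.058), with adjusted p-values of 0.522 to 0.730. The day 35 groups hold 4 of the 5 arrays with a high actin difference. Without those 5 arrays RPL4 differed by -0.013 and RPL7L1 by -0.095, so both turned their sign, while RPL22L1 was -0.059, RPL29 -0.012 and RPS19BP1 -0.025. Averaged over its probe sets RPL22L1, whose other sets are dim, was -0.054. RPS13, whose sets are all dim (mean of 3.95 for the chosen one), was 0.051 when so averaged. Without the 2 pancreatic arrays RPL4 was 0.095 and RPS23 0.028.

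Within LRFI, 45 of 67 genes had higher and 22 lower means at day 42, with a median of 0.013 beside -0.0070 over all genes and -0.039 over the other bright probe sets. No member passed (smallest adjusted p = 0.493), with 0% of all probe sets passing. At an unadjusted p under 0.05 there were 2 members, RPS23 and RPS13, against 9.83% of all probe sets, and 2 with trended and robust variances. The RPS13 set is the dim one (mean 3.95), while the bright set shared with GNAL had an SD of 0.041 over 16 arrays. The median was 0.063 with 54 genes higher when the 5 arrays of high actin difference were left out, which leaves 2 LRFI day 35 arrays. Without the 2 pancreatic arrays, 33 were higher.

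The 4 members with higher readings on all LRFI day 42 arrays than on any LRFI day 35 array were RPL26L1, RPL7, RPS12 and RPS23, beside 2.15% of all probe sets. The 3′ minus 5′ difference of GAPDH also set these groups apart, at 0.36 to 0.40 on day 42 and 0.054 to 0.26 on day 35 arrays. Its part in the readings of this comparison was not tested. RPL7, a protein of the large subunit's outer face, read 13.44, 13.49, 13.44 and 13.45 at day 42, against 13.27, 13.32, 13.33 and 13.43 at day 35, a difference of 0.12 (adjusted p = 0.563). RPS12 read 13.004, 13.06, 12.94 and 12.95 at day 42, against 12.89, 12.75, 12.81 and 12.90 at day 35, a difference of 0.15 (adjusted p = 0.533). All 4 day 42 readings of both genes were above the highest day 35 reading. Lower without overlap in LRFI were RPL12 and RPL29, 2 members beside 2.83% of all probe sets. RPL29 differed by -0.17 and RPL12 by -0.11, RPS19BP1 by -0.16, RPS2 by -0.087 and RPL3L by -0.12, and on the higher side RPS13 by 0.23 and RPL11 by 0.097 (adjusted p of at most 0.746). Averaged over their probe sets, RPL29 was -0.035, RPS12 0.037, RPS13 0.080, RPL11 0.014 and RPS2 -0.039. The second set of RPL11, nearly as bright as the chosen one (mean 13.36), differed by 0.020. The other bright set of RPS2 (mean 13.42) had a slightly higher mean at day 42, opposite to the chosen one. The second brightest set of RPL29 had a lower mean at day 42, as the chosen one did. With the 5 arrays of high actin difference left out RPS19BP1 was -0.048 and RPS2 -0.0013.

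Within HRFI, 20 of 67 genes had higher and 47 lower means at day 42, with a median of -0.029 beside -0.0011 over all genes and 0.018 over the other bright probe sets. No member passed (smallest adjusted p = 0.541), with 0% of all probe sets passing. RPL22L1 was the 1 member at an unadjusted p under 0.05, against 8.28% of all probe sets, and also the 1 with trended and robust variances. RPL36A was the 1 member with lower readings at day 42 without overlap, beside 2.46% of all probe sets, and 0 were higher, beside 2.12%. It read 13.08, 13.01, 13.07 and 13.05 at day 42, against 13.09, 13.24, 13.13 and 13.15 at day 35 (difference -0.10, adjusted p = 0.749). With the 5 arrays of high actin difference left out, 29 genes were higher and the median was -0.0084. That leaves only replicates 1 and 4 of HRFI at day 35.

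RPL22L1 is a paralog of RPL22, and in mouse RPL22 holds its mRNA down and RPL22L1 can take its place in the ribosome. RPL22L1 read 10.62, 10.27, 10.48 and 10.66 on LRFI day 42 arrays and 10.31, 10.13, 10.89 and 10.73 on LRFI day 35 arrays. It read 10.50, 10.14, 10.64 and 10.04 on HRFI day 42 arrays, against 10.56, 10.48, 10.998 and 11.10 on HRFI day 35 arrays. In HRFI the ages overlapped, with HRFI day 35 replicates 3 and 4 above all day 42 arrays.

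The difference between the ages in HRFI was -0.45 (SE 0.187, adjusted p = 0.541), which is 0.731-fold and the largest in size of any member in any comparison. Without the 2 pancreatic arrays it was -0.38, and averaged over its probe sets -0.14. That average weighs dim sets as much as bright ones, and the other sets of RPL22L1 read only 4.23 to 6.86. RPL22 itself read 13.11, 13.20, 13.06 and 13.14 on LRFI day 42 arrays and 13.04, 13.04, 13.17 and 13.10 on LRFI day 35 arrays. In HRFI it read 13.09, 13.07, 13.05 and 13.13 on day 42 arrays, against 13.12, 13.27, 13.12 and 13.20 on day 35 arrays. RPL22 thus spanned 13.04 to 13.27 where RPL22L1 spanned 10.04 to 11.10.

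The other genes with the smallest p between ages in HRFI were RPL23A (-0.090), RPS15 (-0.093) and RPS24 (-0.10) on the lower side, and RPL39L (0.074), RPL4 (0.13), RPL7L1 (0.13), RPL3L (0.081) and RPL38 (0.043) on the higher side (adjusted p = 0.755 to 0.909). RPL23A, at the exit of the tunnel, averaged 13.49 ± 0.025 at day 42 and 13.58 ± 0.046 at day 35 (SD, n = 4). RPL4 and RPL7L1 differed by -0.12 and -0.15 when the 5 arrays of high actin difference were left out, and by 0.024 and 0.018 without the 2 pancreatic arrays. Averaged over their probe sets, RPL7L1 was -0.15 and RPL38 -0.014. The other set of RPL7L1 read only 5.41 to 6.97, whereas those of RPL38 include bright ones (means of 13.34 and 13.31).

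The interaction of line and age asks whether the difference between day 42 and day 35 was itself different in LRFI and HRFI, and is the LRFI difference minus the HRFI difference. It was above 0 for 52 of 67 genes and below 0 for 15, with a median of 0.049 beside -0.012 over all genes and -0.059 over the other bright probe sets. In the small subunit 20 genes were above and 3 below 0 (median 0.065), in the large subunit 27 and 10 (median 0.049), and all 3 stalk genes were above 0. No member passed (smallest adjusted p = 0.804), with 0% of all probe sets passing. At an unadjusted p under 0.05 there were 0 members, against 6.34% of all probe sets, and 0 with trended and robust variances. The interaction and the 2 comparisons within lines use the same arrays, so their medians are not independent of each other.

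RPS23 had the smallest p of the interaction, with 0.18 (SE 0.094, adjusted p = 0.804). RPS13 (0.28), RPS28 (0.21), RPL22L1 (0.44) and RPL7 (0.15) followed on the higher side, and RPL29 (-0.20), RPL3L (-0.20), RPS2 (-0.10), RPS19BP1 (-0.14) and RPL27A (-0.090) on the lower side, with adjusted p-values of 0.810 to 0.913. The standard error of the RPL22L1 value was 0.264 (adjusted p = 0.818). When all probe sets of a gene were averaged, RPL22L1 was 0.17, RPS13 0.058, RPS28 0.049, RPL27A -0.028 and RPS2 -0.039, and RPL29 turned its sign to 0.014. Such an average weighs dim sets as much as bright ones. All averaged sets of RPS13 are dim, the chosen one included (mean 3.95), and the other set of RPS28 read only 3.327 to 4.134. The second brightest set of RPL29 had a negative interaction, as the chosen set did. The other bright set of RPS2 had a positive interaction, opposite to its chosen set. With the 5 arrays of high actin difference left out, RPL22L1 was 0.69, RPS2 -0.052 and RPS19BP1 -0.047. Day 35 then keeps only replicates 1 and 2 of LRFI and replicates 1 and 4 of HRFI.

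**Figure D5:**
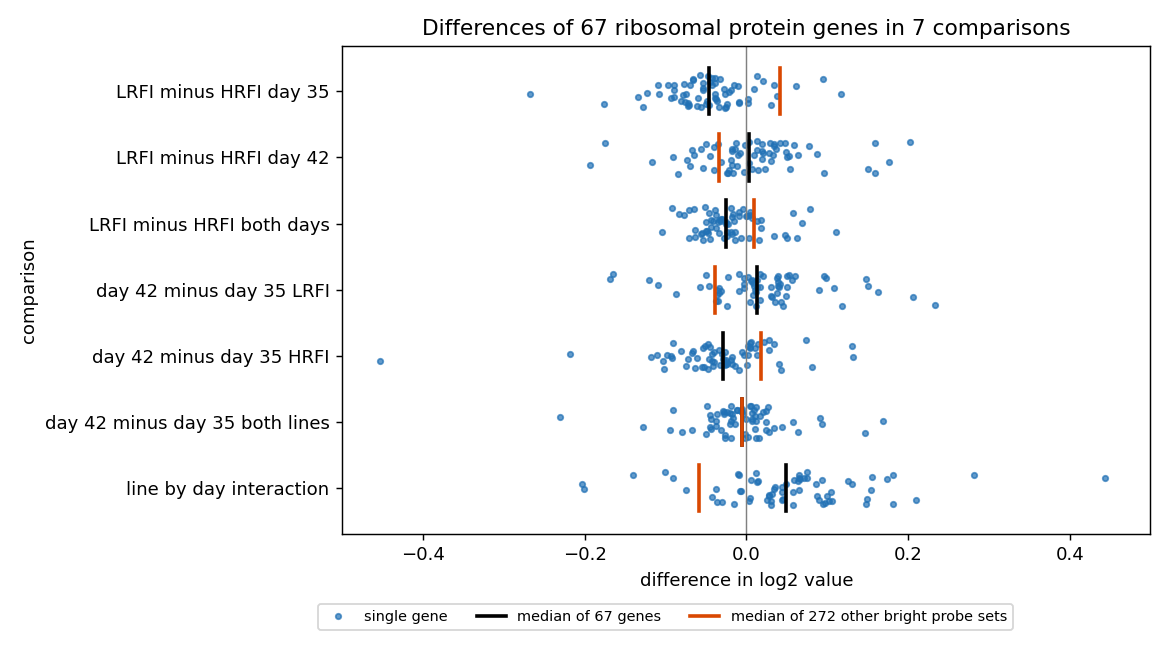
Difference in log2 value of the 67 genes in each of the 7 comparisons (horizontal, first-named group minus the second; 1 blue point per gene, spread vertically only for legibility), with the median of the 67 genes in black and that of the 272 other bright probe sets in orange. The medians of the 67 genes lie between -0.046 and 0.049, and RPL22L1 gives the farthest points at -0.45 and 0.44. These are -0.14 and 0.17 when its probe sets are averaged, with its dim sets weighing as much as the chosen one.

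The intervals of single genes apply to differences between readings near the top of the scale, and how far such readings or the normalization narrow a difference in mRNA was not tested. The median standard error over the 67 genes was 0.070 for 4 against 4 arrays, 0.050 for 8 against 8 and 0.0996 for the interaction, against 0.12, 0.085 and 0.17 over all probe sets. For the 59 bright members the 95% intervals lay within -0.35 and 0.33 between the lines at day 35, and within -0.39 and 0.40 at day 42. The widest limit thus corresponded to a 1.28-fold difference at day 35 and a 1.32-fold difference at day 42. Between the ages it was 1.43-fold in LRFI, 1.36-fold in HRFI and 1.31-fold over both. Of the bright members, 91.5% differed by less than 0.1 between the lines at day 35 and 93.2% at day 42, where 57.7% and 54.8% of the 272 other bright probe sets did.

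The stalk proteins, which recruit elongation factors, showed no separation of groups. RPLP0 averaged 13.08 ± 0.179 in LRFI at day 42, 13.10 ± 0.110 in LRFI at day 35, 13.09 ± 0.092 in HRFI at day 42 and 13.16 ± 0.160 in HRFI at day 35 (SD, n = 4 each). RPLP2 read 11.55, 11.80, 11.52 and 11.37 on LRFI day 42 arrays, 11.45, 11.36, 11.65 and 11.69 on LRFI day 35 arrays, 11.44, 11.61, 11.54 and 11.58 on HRFI day 42 arrays and 11.55, 11.54, 11.58 and 11.49 on HRFI day 35 arrays. Its HRFI day 35 arrays lay within the range of each other group. RPLP1, its partner in the stalk, averaged between 13.48 and 13.53 in the 4 groups.

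RPL11 enters the large subunit together with RPL5 and can also bind MDM2. RPL11 read 13.48, 13.62, 13.44 and 13.51 on LRFI day 42 arrays, 13.40, 13.40, 13.39 and 13.49 on LRFI day 35 arrays, 13.47, 13.52, 13.44 and 13.44 on HRFI day 42 arrays and 13.48, 13.54, 13.48 and 13.48 on HRFI day 35 arrays. The LRFI day 35 arrays other than replicate 4 were its lowest, and all groups overlapped. RPS4Y1, listed in RefSeq with RPS4X as a synonym, averaged 13.80 ± 0.050, 13.75 ± 0.057, 13.79 ± 0.030 and 13.82 ± 0.050 in LRFI at day 42, LRFI at day 35, HRFI at day 42 and HRFI at day 35. RPL39L, with RPL39 as a synonym, averaged 13.30 ± 0.064, 13.19 ± 0.113, 13.23 ± 0.045 and 13.16 ± 0.062 in the same groups (SD, n = 4 each).

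Probe sets left out by the choice of 1 per gene read lower, which follows from keeping the highest mean. They also varied more, and most of them were dim. Of the 67 genes, 35 had more than 1 probe set, with 74 others in all, of which 15 had a mean of at least 12 and 55 a mean under 8. Their median lay 6.14 below the chosen set. None passed in any comparison, and the smallest adjusted p by comparison ran from 0.314 to 0.896. RPL21's second probe set read 6.48, 7.30, 5.95 and 6.56 on LRFI day 42 arrays, against 7.78, 8.15, 7.70 and 6.80 on HRFI day 42 arrays. The groups overlapped through LRFI replicate 2 and HRFI replicate 4, and the difference was -1.04 (SE 0.344, adjusted p = 0.808), where the chosen set of RPL21 averaged 13.22 ± 0.020 and 13.19 ± 0.059.

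Another probe set of RPS14, with a mean of 7.61, read 7.10, 7.86, 6.90 and 6.68 on LRFI day 42 arrays, against 7.55, 7.77, 7.83 and 8.17 on LRFI day 35 arrays. LRFI day 42 replicate 2, a pancreatic array, lay among the day 35 readings and the other 3 below them. The difference between the ages was -0.70 (adjusted p = 0.314), and between the lines at day 42 it was -0.66 (adjusted p = 0.796). The chosen set of RPS14 averaged 13.66 ± 0.063 in LRFI at day 42 and 13.65 ± 0.070 in LRFI at day 35 (SD, n = 4), so the 2 probe sets of the gene differ. These probe sets were singled out after their values were seen.

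Other genes of translation were taken from 6 lists. None of their genes passed in any comparison, beside the shares of all probe sets given above, and counts of genes higher or lower follow. Of 32 measured initiation factors (of 40 listed), 24 had higher and 8 lower means at day 42 than at day 35 over both lines, with a median of 0.10 beside -0.0091 over all genes. The day 35 groups hold 4 of the 5 arrays of high actin difference. Their part in this, and in the age comparisons of the other lists, was not tested. Between the lines, 22 of 32 had higher means in LRFI at day 35 (median 0.084) and 18 at day 42 (median 0.0095). EIF3L, a subunit of the factor that prepares the small subunit for mRNA, was the closest to passing, at 0.47 higher at day 42 (adjusted p = 0.0999), and EIF3B of the same factor differed by 0.24 (adjusted p = 0.233).

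EIF4H, a helper of the helicase that opens mRNA, and EIF2S2, of the factor that brings the first tRNA, differed by 0.21 and 0.25 between the lines at day 35 (adjusted p = 0.680 and 0.689). EIF2B5 and EIF4B differed by 0.49 and 0.22 at day 42 (adjusted p = 0.881 and 0.888). Of 11 measured elongation and release factors (of 12), 7 had higher means in LRFI at day 35, 8 at day 42, and 5 at day 42 against day 35 over both lines. EEF1D and ETF1 differed by -0.16 and 0.19 at day 35, EEF1A2 and EEF2 by 0.25 and 0.12 at day 42, and EEF1G and GSPT2 by 0.30 and 0.32 between the ages.

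Factors that build the ribosome were split between directions. Of 68 measured assembly factors (of 81), 42 had higher means in LRFI at day 35, 31 at day 42, and 36 at day 42 against day 35 over both lines, with medians of 0.022, -0.0078 and 0.026. PES1, a maturation factor of the large subunit, differed by -0.40 and LTV1, one of the small subunit, by -0.33 between the lines at day 35 (adjusted p = 0.637 each). NCL and UTP6 differed by 0.21 and 0.39 at day 42, and LAS1L and EFL1 by 0.36 and 0.31 between the ages (adjusted p = 0.208 to 0.888). Of 14 measured genes for RNA polymerase I and the transcription of 5S ribosomal RNA (of 19), 7 had higher means in LRFI at day 35, 4 at day 42 and 8 between the ages. POLR1A and UBTF differed by -0.21 and -0.27 at day 35, POLR1D and GTF3A by -0.21 and -0.25 at day 42, and RRN3 and GTF3A by 0.24 and -0.28 between the ages (adjusted p = 0.173 to 0.903).

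Other mRNAs with a terminal oligopyrimidine tract carry the same start sequence type as the ribosomal protein mRNAs. Of 20 measured (of 25), 8 had higher means in LRFI at day 35 (median -0.027), 19 at day 42 (median 0.081) and 15 at day 42 against day 35 over both lines (median 0.072). All genes had a median of -0.012 at day 42, with 46.5% of them higher in LRFI, and 35 of the 67 ribosomal protein genes were higher there. The LRFI day 42 arrays were also the highest in the 3′ minus 5′ difference of GAPDH, whose part in the day 42 count was not tested. BTF3, of the complex that meets new chains, differed by 0.16 at day 42 (adjusted p = 0.903), VIM by 0.29 at day 35 (adjusted p = 0.860) and CCNI by 0.25 between the ages (adjusted p = 0.346). This list shares EEF1D, EIF4B and EEF1G with the factor lists.

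Of 24 measured genes of growth signalling to translation (of 27), 12 had higher means in LRFI at day 35, 12 at day 42 and 17 at day 42 against day 35 over both lines, with a median of 0.097 in that last comparison. MTOR, the kinase above the S6 kinases, differed by 0.42 (adjusted p = 0.165) and TSC1, which restrains it, by 0.39 (adjusted p = 0.146) between the ages. The MTOR set is dim (mean 5.92), and the part of the arrays of high actin difference in these values was not tested. RPS6KB1, an S6 kinase, and PDCD4, a target of it that holds back initiation, differed by 0.32 and -0.34 between the lines at day 35 (adjusted p = 0.713 and 0.754), and DEPTOR and MTOR by 0.29 and 0.20 at day 42 (adjusted p = 0.888 and 0.931).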

How the data were processed

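Duodenal RNA of 16 arrays was compared by line and age. The deposited log2 values were made by the authors with Partek 6.5 and RMA, per the submitters' processing notes. RMA corrects background, normalizes quantiles and summarizes the probes of a set. This narrows differences of dim probe sets. Per the labels' protocols, total RNA was extracted with Trizol and labelled with biotin. Precision is limited by the number of arrays, which carry no read depth.

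The values were used as deposited. After 96 control probe sets were left out, 38439 remained, of which 27168 had 1 gene symbol, 177 several and 11094 none. All 67 member genes matched a RefSeq table of the assembly GRCg7b, used for names only. Of the chosen probe sets, 24 had identifiers ending in _a_at, 24 in plain _at, 17 in _s_at and 2 in _x_at. The _s_at and _x_at kinds can share probes with other transcripts.

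A model with 1 mean per group over all 16 arrays was fitted with limma 3.58.1 in R 4.3.3 (with data.table at version 1.17.8). P-values of the 7 comparisons were adjusted by Benjamini-Hochberg over 38439 probe sets, with a threshold of 0.05. The ± values are SD between arrays. Lists were described by counts and medians, with no test over the members, and "bright" means a mean of at least 12.5. The fit was tested on simulated data with a set of changed probe sets.

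The members and lists were chosen with earlier results of these data known. Genes named were those with the 5 smallest p in each direction of a comparison, the 5 highest and 5 lowest means, the 6 largest SDs, the paralog pairs, and 2 genes per list in the line comparisons at each age and the age comparison over both lines. RPL5, RPS27A and RPLP0 fall outside that rule and, like the second probe sets, were picked with their values in view. The alternatives were a replicate block, trended and robust variances, leaving out single arrays or the arrays high in pancreatic enzymes or actin difference, that difference as a covariate, centring each array, a filter at the median level, only the arrays compared, and averaging a gene's probe sets.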

Additional observations from a re-analysis of the deposited data

Results flagged for a closer look

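Single arrays stood apart from the other 3 of their group in 7 of 156 group readings tested over 38 named genes and the median of the members, by a gap that is large for the range of the group. Chance alone gives such a gap in about 1 of 20 groups, so 7 of 156 is near what chance gives. In LRFI at day 42, RPL19 read 14.08 on replicate 2, above 13.95 to 13.97 on the others, and this array was high in pancreatic enzymes. RPS13 read 3.89 on replicate 3, below 4.12 to 4.14. In LRFI at day 35, RPL11 read 13.49 on replicate 4, above 13.39 to 13.4, and this array had an actin difference over 1. In HRFI at day 35, RPL26L1 read 13.57 on replicate 3, above 13.45 on each of the others, and this array was high both in pancreatic enzymes and in actin difference. RPL11 read 13.54 on replicate 2, above 13.48, another array with an actin difference over 1. On HRFI day 35 replicate 1, RPS15 read 13.15, below 13.24 to 13.25, and RPS4Y1 read 13.74, below 13.84 to 13.85. The part of these technical measures in the single readings was not tested.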

How the results depend on the processing

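No member passed in any comparison under any alternative. Of the differences of named genes, none of which passed, 16 turned their sign under an alternative. Without the 5 arrays of high actin difference, RPL19 and RPS2 at day 35 between the lines were -0.0063 and -0.0197, RPL4 was -0.1238 between the ages in HRFI and -0.0131 over both lines, and RPL7L1 was -0.1462 and -0.0955. With the actin difference as a covariate, RPL4 and RPL7L1 in HRFI were -0.0524 and -0.0129. When a gene's probe sets were averaged, RPL7L1 was -0.1533 in HRFI and -0.0833 over both lines, RPL22L1 between the lines at day 42 was -0.0495, RPS25 there 1e-04, RPL34 at day 35 was 0.0042, RPL29 in the interaction 0.0143, RPL38 over both ages -0.0044 and RPL38 between the ages in HRFI -0.0143. The cause was not tested. The last setting weighs dim probe sets as much as bright ones. The other bright sets of RPS25 (means of 13.47 and 13.45) were lower in LRFI at day 42, as the chosen one was. The second brightest set of RPL29 had a negative interaction, as the chosen one did. Bright sets with means of 13.34 and 13.31 are among the others of RPL38, both lower in LRFI over both ages, opposite to the chosen one. The second set of RPS7 (13.03) is about as bright as the chosen one. The median of the members between the ages in LRFI was 0.063 without the 5 arrays. Leaving out single arrays, the median of the members ran from -0.063 to -0.030 between the lines at day 35, -0.0081 to 0.022 at day 42, -0.033 to -0.015 over both ages, -0.0054 to 0.042 between the ages in LRFI, -0.049 to -0.014 in HRFI, -0.018 to 0.0021 over both lines and 0.032 to 0.078 in the interaction. Same-numbered arrays did not deviate together (correlations of -0.31 to 0.33, and 4 of 16 arrays correlated best with their own number). With the replicate block 0 members passed, and the count of listed genes that passed was 1 (MTOR between the ages over both lines). Over the whole array the block gave 11 and 19 calls between the ages in HRFI and over both lines, where 0 and 1 were called without it, and trended and robust variances gave 6 over both lines.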
